A study of Homo sapiens with 8 samples.

Results

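SUDHL6-only narrow H3K4me3 islands are stretches of chromatin that were called enriched for trimethylated lysine 4 of histone H3 in the lymphoma line SUDHL6 and carried no called histone mark in the line HT. They were chosen by island position, width and overlap, as the autosomal islands of the SUDHL6 H3K4me3 list that were under 4000 bp wide and shared no base with an H3K4me3 island of HT or with an H3K27me3 island of either line. The rule found 4638 islands among the 11918 autosomal islands of that width and the 13736 islands of the whole SUDHL6 H3K4me3 list. The 6 lists used here held 58757 islands.

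Both HT and SUDHL6 are established lines derived from diffuse large B cell lymphoma, cultured in RPMI medium with serum and left untreated. ChIP-seq was performed in each line with antibodies to H3K27me3, EZH2 and H3K4me3, and each combination of line and antibody had 1 library. The 2 input samples, 1 per line, were not analysed here. Each line stands for a single tumour. Without replicate libraries the lines could not be tested against each other, and a place without an island may still carry the mark. Library depth is unknown here. The 95% intervals of shares are exact (Clopper-Pearson) and reflect counting error alone, and neighbouring islands are not independent of each other. Where a count was 0, the limit given is 3 counts divided by the number of islands, which is lower than the exact limit.

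H3K4me3 is laid down by SET1 and MLL methyltransferase complexes and is best known as a mark of active gene starts, where it forms sharp, strong islands over CpG-rich promoters. Weaker H3K4me3 can also be found at enhancers and at other accessible chromatin. EZH2, the methyltransferase of the Polycomb complex PRC2, writes H3K27me3 and helps to keep genes silent. It is abundant in germinal centre B cells, from which many of these lymphomas arise.

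Absence of an HT H3K4me3 island was the condition that set most of the class. Of the autosomal islands under 4000 bp, 5034 overlapped no HT H3K4me3 island. Of these, 276 overlapped H3K27me3 of HT alone, 68 overlapped H3K27me3 of SUDHL6 alone and 52 overlapped H3K27me3 of both lines, which left the 4638 members. Members were thus 38.9% of the autosomal narrow islands, a share fixed by the rule. The reference class below, called shared narrow islands, holds the 6578 SUDHL6 islands that met the same width and H3K27me3 conditions and did overlap an HT H3K4me3 island. The class most alike, HT-only narrow islands, was built by the mirrored rule in the HT list and held 2401 islands.

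The width limit did not cut the class at a natural edge. The last widths inside it held 39 islands of 3750 bp and 37 of 3900 bp, with median scores of 60 and 66. The first widths outside it held 33 islands of 4050 bp and 32 of 4200 bp that met every other condition, with median scores of 66 and 73. In all, 332 of the 1363 autosomal islands above the limit had no HT H3K4me3 and no H3K27me3.

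Members were somewhat narrower than shared narrow islands and much weaker. Width, score and the absence of an HT island come from the same enrichment measurement that chose the members, so these values describe the class and test nothing. The members covered 8.45 Mb in all. Their median width was 1800 bp (middle 50% from 1200 to 2250 bp), and that of shared narrow islands was 2100 bp (1500 to 2700 bp). Islands of 450 bp or less made up 2.52% (2.09 to 3.02%) of members and 0.958% (0.737 to 1.22%) of shared narrow islands. Islands of 3000 bp or more made up 9.83% (8.99 to 10.7%) and 19.2% (18.2 to 20.1%).

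The score is the authors' own value for each island and is used here only within its list. Members had a median score of 31 (middle 50% from 25 to 42, range 12 to 220), against 84 (60 to 116, range 12 to 403) for shared narrow islands. Per kb of island the median was 18.5 (middle 50% from 16 to 23.1) for members and 42.0 (33.3 to 52.8) for shared narrow islands. The upper quartile of members thus lay below the lower quartile of shared narrow islands. Only 195 members, or 4.20% (3.65 to 4.82%), reached the median score per kb of shared narrow islands. Most of these were short, with a median width of 750 bp and a median score of 41. A score of 100 or more was held by 53 members, 1.14% (0.857 to 1.49%), and by 36.0% (34.9 to 37.2%) of shared narrow islands.

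**Figure D1:**
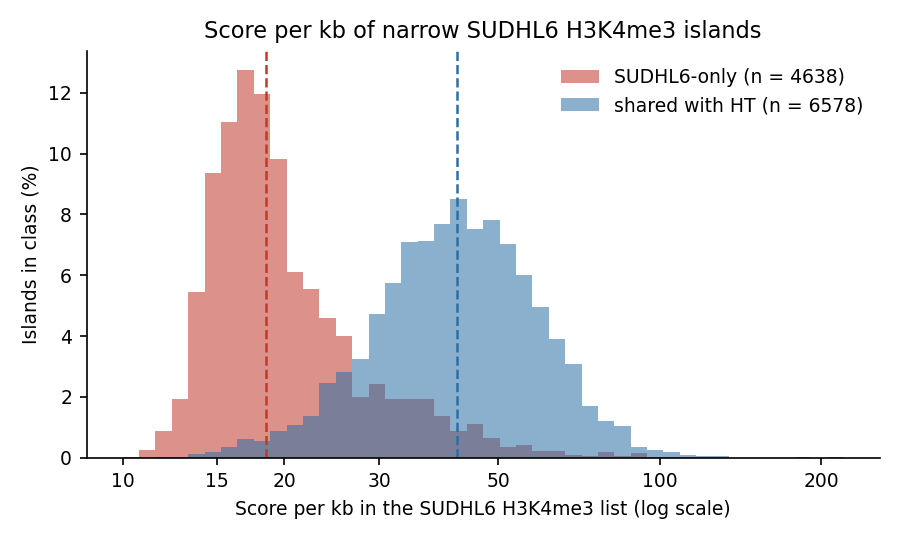
Score per kb (x axis, log scale) of the 4638 SUDHL6-only and the 6578 shared narrow islands within the SUDHL6 H3K4me3 list, as a percentage of each class per bin (y axis), with dashed lines at the medians. The medians are 18.5 and 42.0, and the classes overlap mainly between 20 and 30.

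The scores of members crowded just above the lowest score the list holds at the same width. That lowest score was 17 at 1200 bp, 23 at 1800 bp, 26 at 2400 bp and 34 at 3000 bp. Members had a median score 1.40 times the lowest score of their width (middle 50% from 1.26 to 1.59), and shared narrow islands 3.35 times (2.63 to 4.23). Scores within 1.5 times the lowest were held by 3088 members, 66.6% (65.2 to 67.9%), against 3.22% (2.81 to 3.68%) of shared narrow islands and 28.5% of all autosomal narrow islands. Scores of 4 times the lowest or more were held by 39 members, 0.841% (0.599 to 1.15%), and by 31.5% (30.4 to 32.7%) of shared narrow islands.

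This difference held in every width class of 600 bp. From 1200 to 1650 bp the median score per kb was 18.8 in 1462 members and 43.6 in 1571 shared narrow islands. From 2400 to 2850 bp it was 16.3 in 682 members and 40.7 in 1291 shared narrow islands. The smallest gap was found in islands of 450 bp or less, with 46.7 in 117 members and 62.2 in 63 shared narrow islands. The lowest score the list holds was 12 at 150 bp and 16 at 600 bp, so per kb it was higher in short islands. From 1800 bp upward the median of members stayed between 16 and 16.7. With shared narrow islands weighted to the widths of the members, their median score per kb was 43.2.

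**Figure D2:**
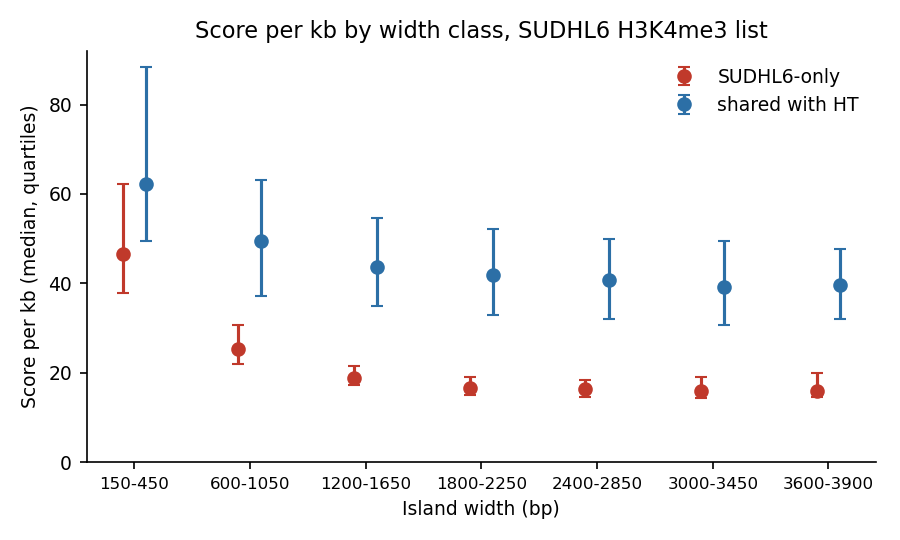
Median score per kb (y axis) in 7 width classes (x axis, bp) for SUDHL6-only and shared narrow islands of the SUDHL6 H3K4me3 list, with bars for the middle 50% of islands. Members lie below shared islands in each class, at 16.3 against 40.7 from 2400 to 2850 bp.

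Read the other way, the share of narrow SUDHL6 islands that were members fell with score per kb. The other narrow islands were shared or overlapped H3K27me3 of either line. Of the 715 narrow islands under 15 per kb, 96.1% (94.4 to 97.4%) were members. The share was 91.1% (89.9 to 92.3%) from 15 to 20 per kb, 51.5% (49.5 to 53.5%) from 20 to 30, 13.2% (12.0 to 14.3%) from 30 to 45 and 5.37% (4.60 to 6.23%) at 45 or more. HT-only narrow islands stood in the same position within their own list, with a median of 19.7 per kb (middle 50% from 16.1 to 26.7) against 39.0 (31.6 to 48.1) for the shared narrow islands of the HT list. Scores of the 2 lists are not compared with each other. Within the higher-scoring 50% of the SUDHL6 H3K4me3 list, with the other lists whole, only 317 members were left, 5.82% of the narrow islands there. How far the class reflects islands near the calling limit of the SUDHL6 library, or a lower depth in HT, cannot be told apart from a difference between the lines.

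A small group of members was as strong as typical shared islands. The highest score, 220, belonged to a 3750 bp island at chr1:16969651-16973400, with 58.7 per kb. It was followed by chr1:111414451-111417600 (score 172, 54.6 per kb), chr3:178276351-178279950 (162, 45 per kb), chr3:111849151-111852150 (148, 49.3 per kb) and chr1:158978851-158981850 (146, 48.7 per kb). All 5 lay above the shared median of 42.0 per kb. The first was 16.2 kb from the nearest shared H3K4me3 island, and the last was 911 kb from one. The 53 members with a score of 100 or more had a median width of 3000 bp and a median distance of 86.6 kb to a shared island. They lay on 18 autosomes, with 9 on chromosome 6 and 8 on chromosome 1. Positions are hg19, counted from 1, and islands were not assigned to genes.

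Score per kb alone picked out other members. The leading 5 were all 150 bp wide, the narrowest an island can be: chr17:22183501-22183650 (score 20, 133 per kb), chr2:89490601-89490750 (19, 127 per kb), chr2:45216151-45216300 (18, 120 per kb), chr15:74938651-74938800 (17, 113 per kb) and chr12:11782201-11782350 (17, 113 per kb). Such values rest on 1 window of 150 bp. Among members of 600 bp or more, a limit chosen after the values were seen, the first was chr10:70939651-70940550, with a score of 96 over 900 bp and 107 per kb. Chromosome 22 held the next 2, at chr22:18881401-18882150 (61, 81.3 per kb) and chr22:18688051-18688950 (70, 77.8 per kb).

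EZH2 was rare at members in both lines, and rarer than at shared narrow islands. EZH2 took no part in the rule, although the rule removed islands with H3K27me3, the mark that EZH2 writes. EZH2 of SUDHL6 overlapped 29 members, 0.625% (0.419 to 0.897%), and 104 shared narrow islands, 1.58% (1.29 to 1.91%), beside 1.79% of all autosomal narrow islands. EZH2 of HT overlapped 60 members, 1.29% (0.989 to 1.66%), and 477 shared narrow islands, 7.25% (6.64 to 7.90%), beside 6.78% of all autosomal narrow islands. The intervals of members and shared narrow islands do not overlap for either line, but the difference was not tested for lack of replicate libraries. In the higher-scoring 50% of the SUDHL6 H3K4me3 list the shares with EZH2 of SUDHL6 were close, 1.26% and 1.35%. With every list held to its higher-scoring 50% their order turned, with 0.514% of 1555 members and 0.217% of 3682 shared narrow islands. Both shares rest on few islands, and islands of HT and of EZH2 were removed in that setting as well.

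HT-only narrow islands had about the same share with EZH2 of SUDHL6 and a higher share with EZH2 of HT. Of the 2401 HT-only islands, 15 met EZH2 of SUDHL6, 0.625% (0.350 to 1.03%), and 80 met EZH2 of HT, 3.33% (2.65 to 4.13%). The HT EZH2 list is the longer, with 2523 islands against 1506. In both classes EZH2 of HT was thus met more often than EZH2 of SUDHL6, also at islands that HT itself lacks.

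**Figure D3:**
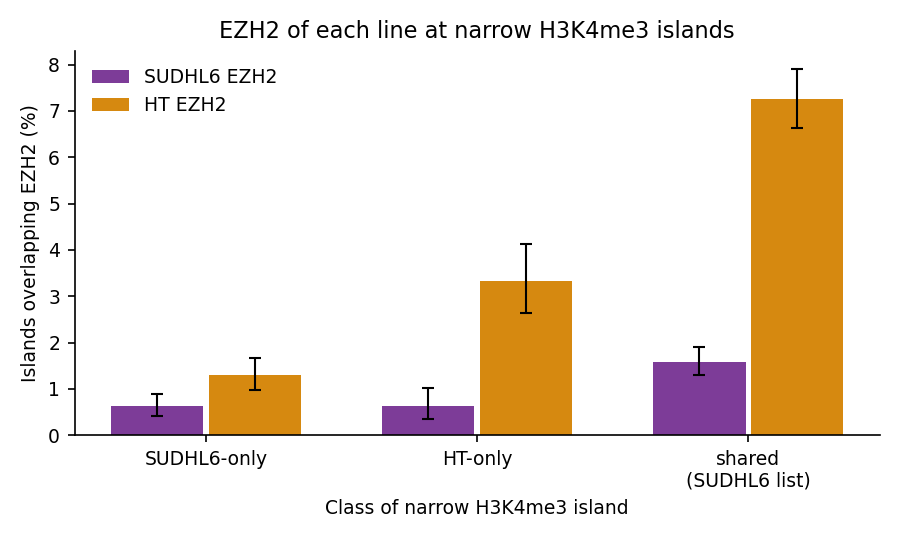
Percentage of narrow H3K4me3 islands (y axis) that overlap an EZH2 island of SUDHL6 or of HT by 1 bp or more, for SUDHL6-only, HT-only and shared islands (x axis), with exact 95% intervals. EZH2 of HT lies over 1.29% of SUDHL6-only, 3.33% of HT-only and 7.25% of shared islands.

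The lower share of members with EZH2 of HT was also seen at like score and like width, and that with EZH2 of SUDHL6 only in part. At 20 to 30 per kb, where both classes are well filled, EZH2 of SUDHL6 overlapped 0.553% (0.223 to 1.14%) of 1266 members and 2.91% (1.93 to 4.21%) of 928 shared narrow islands. EZH2 of HT overlapped 2.45% (1.67 to 3.46%) and 7.97% (6.31 to 9.91%) there. At 30 to 45 per kb the SUDHL6 shares were close, 1.78% (0.771 to 3.47%) of 450 members and 1.37% (0.963 to 1.88%) of 2710 shared islands, while the HT shares were 1.78% and 6.94%. By width, EZH2 of HT lay over 1.18% (0.649 to 1.98%) of members and 6.23% (5.14 to 7.45%) of shared islands from 1800 to 2250 bp. Among members of 450 bp or less, 0 of 117 met EZH2 of HT. This allows a share of up to 2.56% (3 counts), or 3.10% by the exact interval. Of the 63 shared narrow islands of that width 3 did, 4.76% (0.993 to 13.3%). The exact intervals overlap, so this width class does not tell the classes apart.

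The EZH2 islands over members were, by their medians, wider than the members and covered some of them whole. Of the 29 with EZH2 of SUDHL6, 19 were covered over their whole length, and of the 60 with EZH2 of HT, 29 were. The EZH2 islands met had median widths of 4050 bp in SUDHL6 and 4650 bp in HT, against 1500 and 1800 bp for the members on them. Their scores per kb in the H3K4me3 list, with medians of 24.0 and 23.8, were above that of all members. The strongest SUDHL6 EZH2 island over a member had an EZH2 score of 206 and spanned 13500 bp at chr7:99762601-99776100. It covered the whole of the member chr7:99774151-99776100, which had an H3K4me3 score of 72. Next came EZH2 islands with scores of 203 over chr6:51928501-51928800, 194 over chr19:18530101-18530850, 193 over chr7:64964701-64967700 and 106 over chr3:197886751-197889150.

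In HT the strongest EZH2 island over a member had a score of 491 and spanned 17850 bp at chr17:77769151-77787000. The member inside it, chr17:77770051-77771400, was 1350 bp wide with an H3K4me3 score of 47. The next HT EZH2 islands scored 422 over chr2:54983251-54983850, 284 over chr7:74187451-74190300, 199 over chr16:29546701-29547750 and 196 over chr17:62922601-62924700. EZH2 of both lines was met by 2 members, 0.0431% (0.00522 to 0.156%), at chr1:120832201-120834300 and chr3:197886751-197889150. Their H3K4me3 scores were 34 and 43, against a median of 31 over all members. Among shared narrow islands, 12 met EZH2 of both lines, 0.182% (0.0943 to 0.318%). Among HT-only narrow islands 2 did, 0.0833% (0.0101 to 0.301%), and the share over all autosomal narrow SUDHL6 islands was 0.453%.

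Polycomb islands were also farther from members than from shared narrow islands. The median distance to the nearest SUDHL6 EZH2 island was 1350 kb for members and 465 kb for shared narrow islands, and to the nearest HT EZH2 island 419 and 180 kb. For H3K27me3 of SUDHL6 the medians were 388 and 108 kb, and for H3K27me3 of HT 172 and 85.4 kb. An H3K27me3 island of SUDHL6 lay within 10 kb of 4.48% of members and 10.3% of shared narrow islands. HT-only narrow islands lay between these classes, with 6.66% within 10 kb of SUDHL6 H3K27me3. Their median distances were 1249.5 kb to EZH2 of SUDHL6 and 253 kb to EZH2 of HT. To H3K27me3 of SUDHL6 and of HT they were 314 and 129 kb. Distances to any list depend on its number of islands, so they are set side by side for the classes and not for the lists.

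Members lay farther from shared H3K4me3 islands than those lay from each other. The median distance from a member to the nearest SUDHL6 H3K4me3 island of any width with HT overlap was 114 kb (middle 50% from 32.6 to 398 kb). For shared narrow islands the distance to the nearest other such island was 49.2 kb (19.1 to 116 kb). A shared island lay within 10 kb of 446 members, 9.62% (8.78 to 10.5%), and of 14.4% (13.5 to 15.2%) of shared narrow islands, beside 12.1% of all autosomal narrow islands. Within 100 kb the shares were 47.2% (45.8 to 48.7%) and 71.4% (70.3 to 72.5%), beside 61.1%. Beyond 1 Mb lay 10.3% of members and 1.37% of shared narrow islands. Of HT-only narrow islands, measured to the shared islands of the HT list, 7.87% lay beyond 1 Mb, so a far tail was not particular to members.

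**Figure D4:**
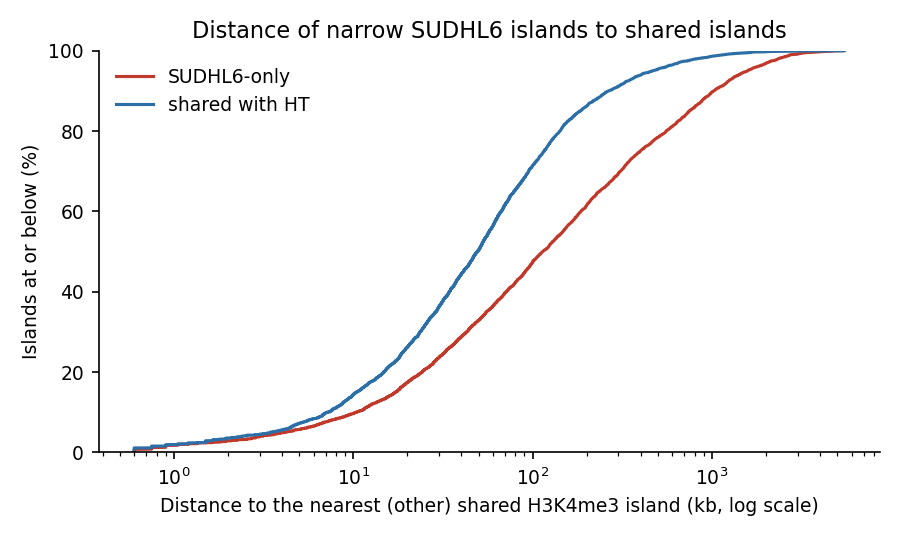
Cumulative percentage (y axis) of SUDHL6-only and shared narrow islands by distance to the nearest other shared SUDHL6 H3K4me3 island (x axis, kb, log scale). The curve of the members lies to the right, with medians of 114 and 49.2 kb.

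At shorter distances the classes were closer to each other. Within 5 kb of a shared island lay 265 members, 5.71% (5.06 to 6.42%), against 7.25% (6.64 to 7.90%) of shared narrow islands and 6.44% of all autosomal narrow islands. Within 1 kb these shares were 1.75%, 1.93% and 1.79%, near each other. Of the members within 5 kb, 36 were at 600 bp, the smallest distance that the calling leaves between islands. An HT H3K4me3 island lay within 1 kb of 85 members, 1.83% (1.47 to 2.26%), and within 5 kb of 357 members, 7.70% (6.95 to 8.50%). In the mirrored count, a SUDHL6 H3K4me3 island lay within 1 kb of 3.50% (2.80 to 4.31%) of HT-only narrow islands. Within 5 kb it was 12.8% (11.5 to 14.2%). The SUDHL6 H3K4me3 list is the longer, with 13736 islands against 10914. HT-only narrow islands were nearer to shared islands, with a median of 64.4 kb (middle 50% from 19.5 to 250 kb) and 15.1% (13.7 to 16.6%) within 10 kb.

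Score and distance went together in members but hardly in shared narrow islands. Members within 5 kb of a shared island had a median of 20 per kb, those from 20 to 100 kb 19.3, those from 100 to 500 kb 17.9 and those beyond 500 kb 17.3. Shared narrow islands had 40, 42.7, 41.4 and 41.7 over the same distances. EZH2 of HT was met by 3.77% of the 265 members within 5 kb and by 0.400% of the 999 beyond 500 kb, and by 9.43% and 5.65% of shared narrow islands. At 20 to 30 per kb the median distances of members and shared narrow islands were 79.1 and 47.8 kb. In the higher-scoring 50% of the SUDHL6 list they were 61.4 and 61.1 kb, and 13.6% of members and 10.5% of shared narrow islands then lay within 10 kb, so that order turned.

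The members farthest from any shared island were weak and lay in a few wide stretches of 3 chromosomes. The farthest was chr4:32203501-32203950 (score 15), 5338 kb away. Chromosome 5 held chr5:26352301-26354100 (score 25) at 4858 kb and chr5:26287351-26290050 (score 37) at 4793 kb. The others were chr4:135130501-135133800 (score 45) at 4803 kb and chr13:68601301-68603400 (score 26) at 4697 kb.

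The share of narrow islands that were members differed up to 3.33-fold between autosomes. It was highest on chromosome 8, with 317 of 541 islands or 58.6% (54.3 to 62.8%), then on chromosomes 7 with 55.5% (52.0 to 59.1%), 9 with 53.0% (49.2 to 56.8%) and 6 with 49.8% (46.0 to 53.6%). It was lowest on the chromosomes 19 with 17.6% (14.9 to 20.6%), 22 with 20.5% (15.5 to 26.3%) and 17 with 21.2% (17.95 to 24.7%). Chromosomes 6, 7, 8 and 9, picked for their high shares, together held 1456 members, 31.4% of the class. They held 22.6% of all autosomal narrow SUDHL6 islands and 16.2% of shared narrow islands. The same chromosomes held 17.8% of HT-only narrow islands.

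**Figure D5:**
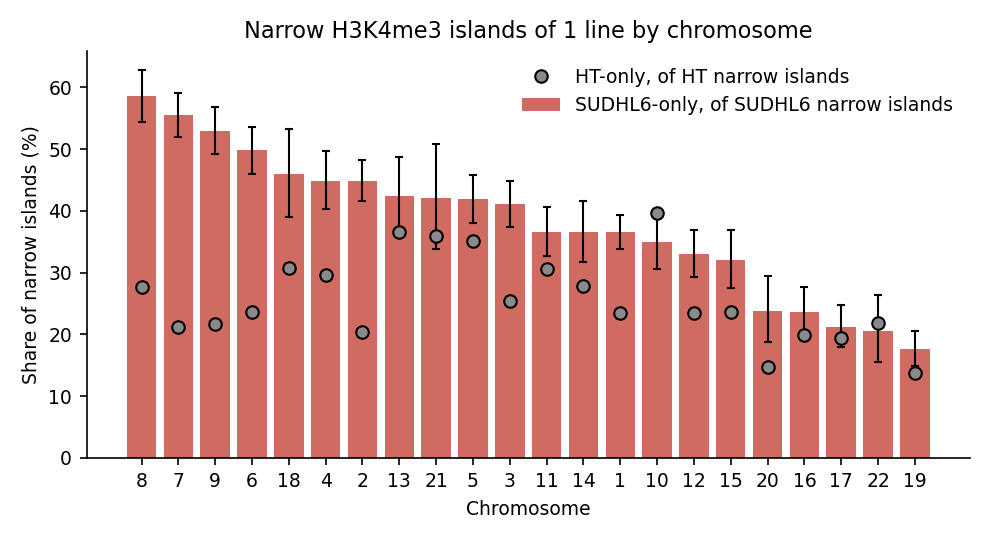
Share of narrow H3K4me3 islands found in 1 line by chromosome (x axis, ordered by the SUDHL6 share): bars give SUDHL6-only islands as a percentage of SUDHL6 narrow islands with exact 95% intervals, and points give HT-only islands as a percentage of HT narrow islands. The bars run from 58.6% on chromosome 8 to 17.6% on chromosome 19, and the points are highest on chromosome 10 at 39.6%.

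HT-only islands had another order, with the highest shares on chromosomes 10 (39.6% of HT narrow islands), 13 (36.6%) and 21 (35.9%) and the lowest on 19 (13.8%) and 20 (14.6%). Over the 22 autosomes the shares of the 2 classes had Pearson r = 0.39 and Spearman rho = 0.38, given as a description, since all chromosomes come from the same libraries. Chromosome 19, which is dense in genes, was low in both. Members were strongest where they were the smallest share: the median score per kb was 25.9 on chromosome 19 and 23.3 on chromosome 22, and 16.9 to 20 on 18 of the other autosomes. Chromosomes 16 and 17 had 20.9 and 21.0.

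The members were spread unevenly along the autosomes. Autosomes were divided into windows of 10 Mb, and 293 windows held a narrow SUDHL6 H3K4me3 island. The median window had 14 members and the richest 108. The 30 windows with most members held 1154 of them, 24.9% of the class. These windows, ranked by that number, were 10.2% of all windows and held 16.5% of all autosomal narrow SUDHL6 islands. They held 10.8% of shared narrow islands and 12.5% of HT-only narrow islands. Shared narrow islands were more gathered in windows of their own, with 31.2% in the 30 windows richest in them, and 4 windows were in both sets. Over the 246 windows with at least 20 narrow islands, the share of members had a Spearman rho of -0.76 (Pearson r = -0.63) with the number of shared islands. That number is part of the denominator of the share, so a negative value is partly built in. The number of members itself had a rho of 0.19 (r = 0.12) with the number of shared islands over all 293 windows, and of 0.30 (r = 0.22) with the number of HT-only islands.

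The window richest in members lay between 40 and 50 Mb of chromosome 9, next to the centromere. It held 108 members among 127 narrow islands, with positions from 40624501 to 46903200, a median width of 1950 bp and scores from 16 to 94 (median 34). Beyond it no list had an island up to 65620650, a stretch of 18.7 Mb that takes in the centromere and the heterochromatin of this chromosome. The window between 60 and 70 Mb held 46 members among 53 narrow islands. Shared islands were weak here as well: their median score per kb was 20 and 16.9 in these 2 windows of the SUDHL6 list, against 42.0 over all autosomes, and 19.2 and 19.3 in the HT list, against 39.0. These flanks of the centromere carry long duplicated sequences, and how reads with several matches were treated is not known here. The part of this in the result was not tested. The 2 windows held 42.2% of the members of chromosome 9, and without them 41.5% (37.1 to 45.9%) of its narrow islands were members.

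Chromosome 7 held 3 of the 10 richest windows. Between 70 and 80 Mb there were 50 members, between 90 and 100 Mb 48 and between 60 and 70 Mb 42. Besides these and the 2 of chromosome 9, they lay on chromosome 6 (20 to 30 Mb with 43 members, 50 to 60 Mb with 39), chromosome 8 (60 to 70 Mb with 43), chromosome 1 (140 to 150 Mb with 42) and chromosome 9 (0 to 10 Mb with 41). In these 10 windows together lay 502 members. Shared islands within the SUDHL6 list were above their median score per kb in 6 of them. Those of the HT list were above theirs in 4. The highest SUDHL6 value was 53.9, between 90 and 100 Mb of chromosome 7. There the shared islands of the HT list had 36.2, against their own median of 39.0. Over the 30 richest windows the median was 44.3 per kb in the SUDHL6 list and 41.8 elsewhere, and in the HT list 37.3 and 39.3 elsewhere.

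The other antibodies moved in part with these windows. SUDHL6 covered more H3K27me3 than HT in 17 of the 30 richest windows (56.7%), against 84 of all 293 (28.7%), and more EZH2 in 11 (36.7%), against 64 (21.8%). Of all H3K27me3 length, 16.6% in SUDHL6 and 8.15% in HT lay in the 30 windows, while for EZH2 these shares were 19.97% in SUDHL6 and 12.3% in HT. The second richest window, on chromosome 7, had 374 kb of SUDHL6 H3K27me3 and 77.1 kb of HT H3K27me3. The window on chromosome 1 went the other way, with 44.6 kb for SUDHL6 and 321 kb for HT. That on chromosome 8 had nearly equal lengths of 47.7 and 46.4 kb. Copy number was not measured, and its part in the gathering was not tested.

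By share, members made up over 75% of narrow islands in 15 of the 246 windows and under 15% in 14. Among the former, they were 87.0% of 23 narrow islands between 40 and 50 Mb of chromosome 14, 86.8% of 38 between 110 and 120 Mb of chromosome 8, and 83.7% of 43 between 80 and 90 Mb of chromosome 7. At the other end, 0 of 23 narrow islands between 60 and 70 Mb of chromosome 20 were members. This allows a share of up to 13.04% (3 counts). Members were 7 of 99 narrow islands between 0 and 10 Mb of chromosome 16, 2 of 23 between 100 and 110 Mb of chromosome 4, 3 of 33 between 20 and 30 Mb of chromosome 8 and 8 of 80 between 70 and 80 Mb of chromosome 17. Some of these windows lie at or near chromosome ends, but those of chromosomes 4 and 8 do not. Counted from the outermost island of any list, the outer 10 Mb of the autosomes held 13.6% (12.7 to 14.7%) of members, 17.5% (16.03 to 19.1%) of HT-only and 22.8% (21.8 to 23.9%) of shared narrow islands.

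On a finer scale, members followed each other. All autosomal SUDHL6 H3K4me3 islands and the HT H3K4me3 islands without SUDHL6 overlap were put in order along the chromosomes, 15985 islands in all, of which 29.0% were members. The next island was again a member after 42.1% of members, after 21.0% of shared narrow islands and after 25.5% of islands of HT alone. Members formed 2687 unbroken runs. In these runs 1735 members stood alone, 37.4%, and 858 members, 18.5%, stood in 131 runs of 5 or more. Of shared narrow islands, which were 41.2% of the ordered islands, 25.3% stood in runs of 5 or more, and the longest run had 16 islands in both classes. The median score was 31 both alone and in runs of 5 or more, and the median score per kb was 19.2 and 17.7.

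The longest run held 16 members at chr8:110833051-114624300, a stretch of 3791 kb in which neither line had any other H3K4me3 island. Their scores in order of position were 36, 25, 26, 21, 31, 33, 46, 34, 31, 22, 33, 59, 37, 28, 14 and 41. All 16 were below the SUDHL6 list's median score of 61, which only 7.16% of all members reached. Within the run, 5 members lay together at chr8:113529751-113611200 with gaps of 1.5 to 34.4 kb. The next run, 14 members at chr4:26901901-37688250, was spread over 10786 kb and included the member farthest from any shared island. Runs of 11 members lay on chromosomes 2, 5, 6, 7 and 9.

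The run on chromosome 5, at chr5:123004501-124077450, was the densest of these, with 11 members in 1073 kb. Its scores were 22, 23, 25, 21, 25, 25, 27, 31, 37, 47 and 39, and its last 5 members lay within 28.1 kb with gaps of 0.6 to 7.8 kb. On chromosome 7, 11 members at chr7:36466501-37908300 included a stronger one, chr7:37379551-37382700, with a score of 93 over 3150 bp. The other 10 of that run scored from 15 to 36.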

How the data were processed

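ChIP-seq of H3K4me3, H3K27me3 and EZH2 in SUDHL6 and HT was used, with 1 library for each line and antibody. The islands were called with SICER on hg19, per the submitters' processing notes, with windows of 150 bp, gaps of 450 bp and FDR 1E-7 per the names of the deposited lists. Every library has its own list, with 1 score per island as deposited by the authors. Neither the meaning of that score nor the aligner, read filters, control or depth is given in the sources used here.

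Islands were compared by overlap of 1 bp, widths were taken as end + 1 - start, and the score was divided by width in kb. Windows were 10 Mb. No p-value was computed, since no line had a replicate. The members, gene lists and comparisons were chosen with earlier results of these data known. Named islands were, by rule, the 5 with the highest score, the highest score per kb, the strongest EZH2 of each line and the largest distance to a shared island, besides the 10 richest windows and the 5 longest runs. The steps were checked on 13281 simulated islands, of which 100% were classed rightly. No annotation on hg19 was used, so the planned counts over gene lists were left out. Python 3.11.15, numpy 2.4.6, pandas 2.3.3, scipy 1.17.1 and matplotlib 3.10.9 were used.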

Additional observations from a re-analysis of the deposited data

Results flagged for a closer look

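Chromosome X was left out by the rule and held 195 SUDHL6 H3K4me3 islands that met its other parts. This is a signal outside the islands compared above. They were 45.8% (41.0 to 50.6%) of the 426 narrow islands of that chromosome, with a median width of 1650 bp and 18.5 per kb, against 31.7 per kb for the shared narrow islands there. EZH2 of either line overlapped 0 of them, which allows a share of up to 1.54% (3 counts). Few EZH2 islands lay off the autosomes: 1500 of 1506 in SUDHL6 and 2508 of 2523 in HT were autosomal. The share over all narrow islands of chromosome X was not counted, so this 0 does not set these islands apart.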

How the results depend on the processing

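No paired analysis was possible because each line and antibody had 1 library, and for the same reason no replicate could be left out. Alternatives on chromosome 9, the higher-scoring 50% of the SUDHL6 H3K4me3 list alone and scores of 20 to 30 per kb were chosen after seeing the data. Members had the lower score per kb and the lower share with EZH2 of HT under every alternative run. Their median distance was the larger too, but with the SUDHL6 H3K4me3 list alone held to its higher-scoring 50% the difference was gone (61.35 kb, against 61.05 kb for shared narrow islands). The cause of the changes below was not tested. The number of members moved to 1555 when every list was held to its higher-scoring 50%, where islands of HT were also removed, and to 317 when only the SUDHL6 H3K4me3 list was. In the first of these settings members were 28.5% of narrow islands, with a median width of 2250 bp and 37.6 per kb. EZH2 of HT lay over 2.51% of them, their distance was 92.9 kb and the richest 10% of windows held 36.3%. Shared narrow islands there had 46.7 per kb, 3.83% with EZH2 of HT and a distance of 77.55 kb. These 3 differences were smaller than in the main setting. EZH2 of SUDHL6 then lay over 0.514% of members and 0.217% of shared narrow islands, so the order turned, though both shares rest on few islands. Within 10 kb of a shared island the order turned too (8.81% and 7.36%). In the second setting the values were 5.82%, 2700 bp, 30 per kb, 1.26% with EZH2 of SUDHL6, 3.79% with EZH2 of HT, 13.6% within 10 kb and 41.6% in the richest windows. There members were wider than shared narrow islands (2400 bp) and more often within 10 kb of a shared island (10.5%). With an overlap of 50% of the island, members were 44.8% of narrow islands, with 19.2 per kb, 132 kb and 8.20% within 10 kb. The share was 41.5% under 3000 bp, with 18.7 per kb, and 37.7% under 6000 bp. With islands within 1 kb taken as overlapping it was 37.5% (8.75% within 10 kb), and with islands within 5 kb joined 37.5%, with 142 kb, 4.11% within 10 kb and 22.95% in the richest windows. Without H3K27me3 in the rule the share was 42.2%, with 18.8 per kb, 1.37% with EZH2 of SUDHL6 and 4.59% with EZH2 of HT. At 20 to 30 per kb, 2.45% had EZH2 of HT, the distance was 79.1 kb and 12.9% lay within 10 kb. The richest 10% of windows held 27.1% of members with windows of 5 Mb, 16.97% when ranked by share of members and 23.1% without chromosome 9. Unknown depth limits what a missing HT island means.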
